A study of Cucumis melo with 4 samples.

Results

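The intron peaks of CmNOR are the peaks of the authors' list whose location text begins with the word Intron, and there were 268 of them among 5493 peaks (4.88%, 95% exact Clopper-Pearson interval 4.32 to 5.48). The promoter class of the list takes every peak within 3 kb of the start of its assigned gene on either side, which held in all 5493 rows, so an intron peak here lay more than 3 kb from that start. The location text names the host gene, which is the gene whose intron holds the peak, and the intron's number and the number of introns. A separate column names the assigned gene. CmNOR, a transcription factor of the NAC family, comes from melon (Cucumis melo). The peaks come from DAP-seq (DNA affinity purification sequencing) of melon genomic DNA, with 2 libraries made with the protein MBP-His-CmNOR and 2 negative control libraries made with MBP-His alone. MBP is maltose-binding protein, the His tag served to purify the proteins from E. coli, and the control proteins therefore carried everything but CmNOR. The labels also describe a version with PCR-amplified genomic DNA and do not say which libraries used it, and they name no melon tissue or cultivar.

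NAC proteins bind DNA through a conserved domain at their amino end, and the tomato gene NON-RIPENING, after which CmNOR is named, acts in fruit ripening. DAP-seq records where a purified protein retains naked DNA fragments, so it measures binding outside the cell and says nothing of whether a site is open or used in a plant. Introns are the stretches of a gene that are transcribed and then removed from the RNA, and in plants some of them hold sequences that act on the gene's transcription.

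The deposited values are 1 combined list with no value per library and no enrichment or p-value per peak. Depth was therefore unknown, agreement between libraries and CmNOR against the tag control were not measured, and the intervals given for shares cover counting error only. Peaks are not replicates of a condition, so the comparisons with other peak classes are descriptions and none was tested. Positions follow the deposited list, for which no source used here names the genome build.

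The label fitted the coordinates wherever these could be read. The list gives gene coordinates for assigned genes only, so a host had coordinates when some peak was assigned to it, which was the case for 177 of the 245 distinct hosts and for 193 of the 268 peaks. All 193 lay wholly inside their host. Intron numbers rose from the gene start in 14 of 14 pairs of peaks that lay in different introns of 1 host. The other 75 peaks, in 68 hosts, could be described by intron number and position only.

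The list assigned about one intron peak in every 3 to a gene other than the one it lay in. Host and assigned gene were the same for 175 of 268 peaks (65.3%, 59.3 to 71.0) and differed for 93. Among the 238 exon-class peaks they were the same for 154 (64.7%, 58.3 to 70.8). Of the 93 peaks assigned to a neighbour, 56 lay upstream of the start of that neighbour, 37 lay past its end, and 0 overlapped it. The assigned neighbours were short genes, with a median length of 1503 bp (150 to 19601 bp), and 24 of the 93 were assigned to a gene under 500 bp. The GO (Gene Ontology) terms printed beside such a peak are those of the neighbour, and 59 of the 93 carried some. For 18 of the 93 the host also had coordinates, and those peaks lay a median of 23001.5 bp from the start of the host. In each of these 18 the start of the assigned gene was nearer to the peak than the start of the host. In 6 of these 18 the assigned gene was itself nested inside the host, in 1 it overlapped the host in part and in 11 it lay outside.

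The widest intron peak was one of the nested cases. It covered 921 bp at chr6:12550089-12551009 in intron 8 of 13 of MELO3C019533.2, which is annotated to the Arp2/3 complex, the assembly that starts new branches on actin filaments. The list assigned it to MELO3C019532.2, a gene nested in that host, whose start was 4752 bp from the peak. In the same way the peak at chr5:3741250-3741784 lay in intron 16 of 20 of MELO3C014325.2, annotated with protein kinase and serine/threonine phosphatase activity, and was assigned to the nested MELO3C014327.2. The 3 peaks in MELO3C014739.2, annotated with cell adhesion, were all assigned to MELO3C014741.2, a nested gene of 168 bp. Read by assigned gene alone, these 3 hosts would have had no intron peak.

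Intron peaks were most numerous in introns 2 to 4. Intron 4 held 33, intron 3 held 31 and intron 2 held 29. Intron 1 held 22 of 268 (8.21%, 5.22 to 12.2), the next highest count, and introns 5, 6 and 7 held 20, 17 and 20. Intron peaks within 3 kb of an assigned start are in the promoter class and are not counted here, and how many of those lay in intron 1 was not measured. Introns 2 to 4 together held 93 peaks (34.7%), and the median intron number was 5. At the other end, 60 peaks (22.4%, 17.5 to 27.9) lay beyond intron 10 and 14 (5.22%) beyond intron 20. The last intron of the host held 45 peaks (16.8%, 12.5 to 21.8). Hosts had a median of 10 introns, with a middle range from 6 to 16 and a full range from 1 to 78. The peaks lay in the only intron of their host in 2 cases, MELO3C029494.2, annotated with DNA integration, and MELO3C031820.2, which carried no GO term.

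**Figure D1:**
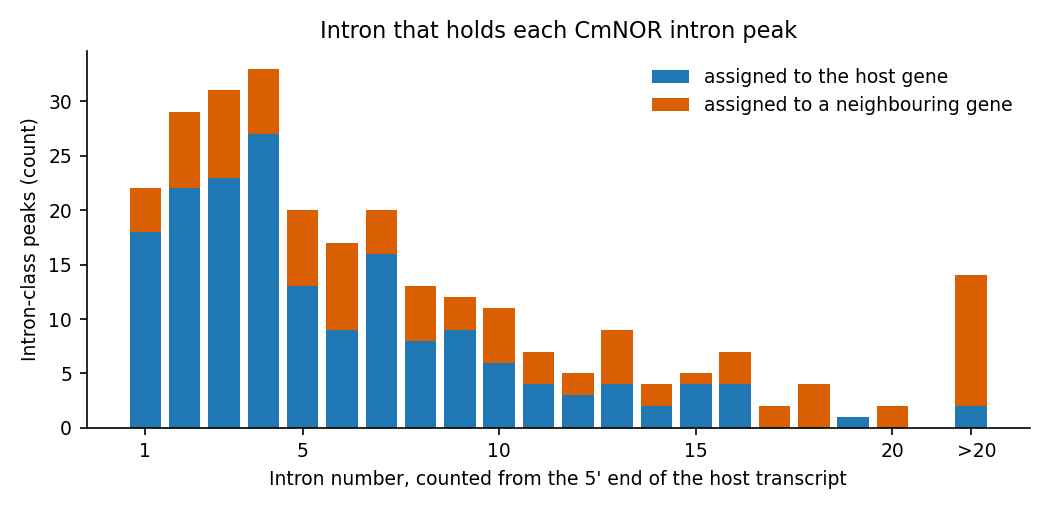
Number of intron peaks (vertical axis) by the number of the intron, counted from the start of the host gene (horizontal axis), with bars divided into peaks assigned to the host and peaks assigned to a neighbouring gene. Counts rise from 22 in intron 1 to 33 in intron 4 and then fall, with a tail of 14 peaks beyond intron 20.

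Among peaks assigned to their host, those beyond intron 10 had the highest median distance from the gene start, and the medians of earlier introns differed little. The median distance was 5190.5 bp for 18 peaks in intron 1, 5300 bp for 72 peaks in introns 2 to 4, 5979 bp for 61 peaks in introns 5 to 10, and 11416.5 bp for 24 peaks beyond intron 10. The ranges overlapped, since the peaks of intron 1 alone ran from 3032 to 175773 bp, and their upper quartile, 11523 bp, was above those of introns 2 to 4 (7630.25 bp) and 5 to 10 (10951 bp). Of those 18 peaks, 3 lay in MELO3C035000.2. Intron 1 held 18 of the 175 peaks assigned to their host (10.3%) and 4 of the 93 assigned to a neighbour (4.30%). Neighbour-assigned peaks that could be checked lay nearer to the assigned start than to the host's own, so such a difference may be partly built in. Among those checked, only the peak of MELO3C035000.2 assigned to MELO3C035001.2 lay in intron 1.

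Most peaks of the 5 hosts with the most introns were assigned to other genes. MELO3C017087.2, with 78 introns, held peaks in introns 40 and 54, and both were assigned to MELO3C017086.2. MELO3C003359.2 has 62 introns, a length of 77.973 kb and annotation to the vacuole, the Golgi apparatus and plasmodesmata, the channels between plant cells. Its peak at chr4:494418-494904 lay in intron 45, at 58190 bp from the host's start, and was assigned to MELO3C003346.2, whose start was 21044 bp away. MELO3C015654.2, with 51 introns, is annotated as a 1,3-beta-D-glucan synthase, the enzyme type that makes callose, a polymer deposited at plasmodesmata and wounds. Its peak in intron 7 was assigned to it and its peak in intron 24 to MELO3C015653.2. MELO3C024492.2, with 50 introns, and MELO3C017366.2, with 41, held 1 peak each, in introns 36 and 31. Neither peak was assigned to its host. Of the 14 peaks beyond intron 20, 2 were assigned to their host. Wherever a neighbour-assigned peak could be checked, the assigned start was nearer to it than the host's own start. Of these hosts, only MELO3C003359.2 and MELO3C015654.2 had coordinates, so nearness could not be checked for the peaks of MELO3C017087.2, MELO3C024492.2 and MELO3C017366.2. Assignment of peaks in late introns to other genes may thus be partly built in, which was not tested.

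Distances to the assigned start had a median of 6474 bp (middle range 4358.5 to 11455 bp, full range 3032 to 175773 bp). A distance of at most 5 kb held for 91 peaks (34.0%), at most 10 kb for 184 (68.7%) and at most 20 kb for 239 (89.2%). Exon-class peaks had a median of 4536.5 bp. At the limit of the class, the nearest peaks inside it lay in MELO3C029910.2 (3032 bp from the start, a heme-binding oxidoreductase), in MELO3C006649.2 (3039 bp from a neighbour's start), in MELO3C011325.2 (3057 bp, annotated as a glutamate receptor), in MELO3C030150.2 (3058 bp, a protein kinase) and in MELO3C015743.2 (3069 bp, a dioxygenase). The nearest gene-body peaks on the promoter side of the limit lay 2999 bp from the start in both MELO3C009310.2 and MELO3C034957.2. Next were MELO3C020949.2 at 2996 bp, and MELO3C014383.2 and MELO3C009365.2 at 2994 bp each.

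Intron peaks lay mostly in long genes. The 177 hosts with coordinates had a median length of 14550 bp, with a middle range from 10229 to 23553 bp and a full range from 4107 to 496697 bp. The median was 7632 bp for the 165 hosts of exon-class peaks and 2665.5 bp for all 4510 genes assigned to any peak. Of the intron hosts, 134 of 177 (75.7%, 68.7 to 81.8) were at least 10 kb long, compared with 59 of 165 exon hosts (35.8%, 28.5 to 43.6) and 429 of the 4510 genes (9.51%). A gene shorter than 3 kb has no room for the class when the peak is assigned to it, so length is partly built into the choice of these peaks.

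The share of genes holding an intron peak rose with gene length over the classes that had room for one. It was 14 of 1143 genes of 3 to 6 kb (1.22%, 0.671 to 2.05), 29 of 493 genes of 6 to 10 kb (5.88%, 3.97 to 8.34) and 76 of 303 genes of 10 to 20 kb (25.1%, 20.3 to 30.4). It reached 47 of 110 genes of 20 to 50 kb (42.7%, 33.3 to 52.5) and 11 of the 16 genes of 50 to 500 kb (68.8%, 41.3 to 89.0). The share holding an exon-class peak was 4.20% at 3 to 6 kb and 14.2% at 10 to 20 kb, and at 20 to 50 kb it was 13.6% (7.84 to 21.5). All genes counted here were assigned to at least 1 peak, and genes without any peak were not counted. A gene can enter the list through the intron peak itself, so these shares are not rates over all genes of a given length. The 68 hosts without coordinates were not counted either. The length of intron sequence per gene was not measured, so a peak rate per kb of intron was not computed.

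**Figure D2:**
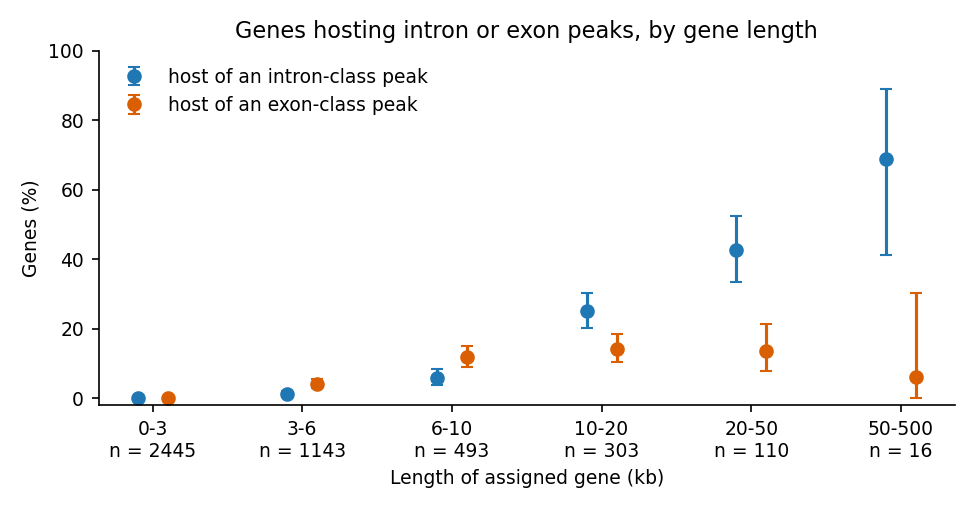
Share of assigned genes that hold an intron peak or an exon-class peak, in percent (vertical axis), by gene length in kb (horizontal axis), with 95% exact intervals as bars. The intron share climbs from 1.22% at 3 to 6 kb to 68.8% at 50 to 500 kb, the last class holding 16 genes, while the exon share lies between 4.20% and 14.2% in every class of 3 to 50 kb.

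Along the host, intron peaks assigned to it were centred near the middle, and the few neighbour-assigned peaks that could be placed lay later. With the start of the gene at 0% and its end at 100%, the median peak centre lay at 49.7% (middle range 36.9 to 71.5%), and 98 of 193 centres (50.8%, 43.5 to 58.0) lay before the midpoint. The 175 peaks assigned to their host had a median of 47.7%. The 18 peaks assigned to a neighbour had a median of 75.6% (middle range 68.6 to 80.7%), and the other 75 of that kind could not be placed, so the pooled median under-represents them. In each of these 18 the assigned start was nearer to the peak than the host's own start. The difference in position between the groups is therefore partly built into the assignment. Exon-class peaks had a median of 72.2% and 34 of 173 centres (19.7%, 14.0 to 26.4) before the midpoint. The 3 kb limit takes up more of a short gene, and exon hosts were shorter. Among hosts of 10 to 25 kb the medians were 48.2% for 93 intron peaks and 56.4% for 56 exon peaks. Over hosts of any length, measured along the stretch past the first 3 kb, the medians were 34.7% for the 193 intron peaks and 48.8% for the 173 exon peaks. The hosts lay on both strands, with 94 of 177 on the plus strand.

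**Figure D3:**
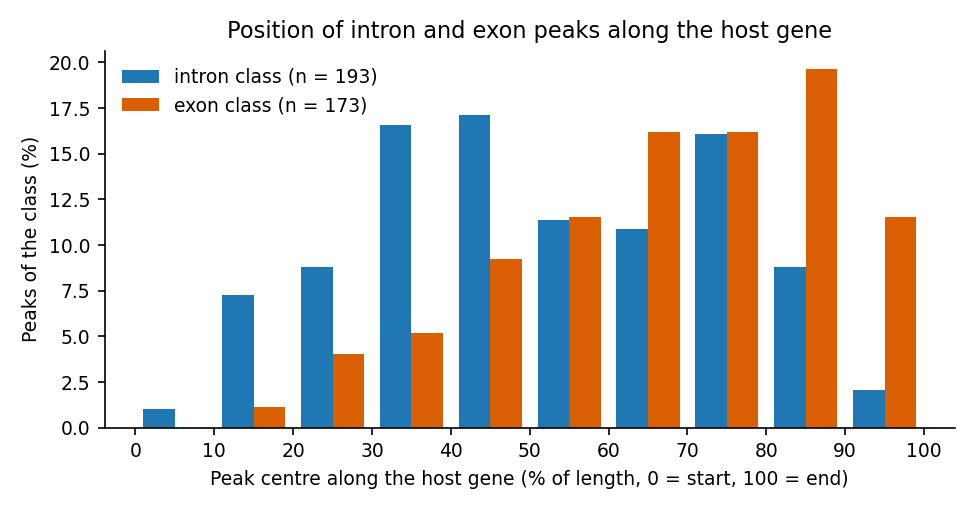
Share of peaks (vertical axis, percent) by position of the peak centre along the host gene (horizontal axis, percent of gene length from start to end) for 193 intron peaks and 173 exon-class peaks whose host has coordinates. Intron peaks spread around a median of 49.7% and exon peaks around 72.2%, and the 9 exon peaks centred past the gene's end lie outside the bars.

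Intron peaks had a median width close to that of the rest of the list, with fewer very wide peaks. Their median width was 418.5 bp (middle range 347 to 483.75 bp, full range 298 to 921 bp), beside 449 bp for exon-class, 416 bp for distal intergenic and 428 bp for promoter-class peaks. Peaks assigned to their host had a median of 430 bp and those assigned to a neighbour 408 bp. A width of at least 657 bp, the 95th percentile of the whole list, was reached by 5 intron peaks (1.87%, 0.608 to 4.30), beside 5.04% of all peaks, 5.46% of exon-class, 5.38% of distal intergenic and 4.98% of promoter-class peaks. A wide peak is more likely to touch an exon, and the class given to such a peak is not stated. If it is the exon class, the lower share of very wide intron peaks is partly built in. After the Arp2/3 host, the widest were 843 bp at chr5:8334876-8335718 in intron 4 of 6 of MELO3C031311.2, which carried no GO term, and 793 bp at chr1:1709470-1710262 in intron 1 of 12 of MELO3C018642.2, annotated with DNA binding and ligase activity. Other wide peaks lay in MELO3C011652.2 (689 bp, intron 16 of 21) and in MELO3C015246.2 (671 bp, intron 4 of 13). The latter is annotated to the COPII coat, which forms vesicles at the endoplasmic reticulum. MELO3C016656.2, annotated with a step of lipid A synthesis, held one of 654 bp in intron 5 of 6. MELO3C002711.2, a metal ion transporter, held one of 646 bp in intron 4 of 7. The rest of the 10 widest were 641 bp in MELO3C025306.2, 640 bp in MELO3C014739.2 and 620 bp in intron 1 of 4 of MELO3C033935.2.

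Most hosts held 1 intron peak. Of the 245 hosts, 227 had 1, 18 (7.35%, 4.41 to 11.4) had more, and those 18 held 41 of the 268 peaks. The 11 of these with coordinates were long, with a median of 47944 bp (34320 to 496697 bp) beside 13871.5 bp for the 166 hosts with 1 peak and coordinates. The rest of the 18 had no length in the list. A longer gene has more room for a second peak, so this difference is partly built into the grouping. Of the 259 distinct introns with a peak, 7 held more than 1. The closest pair lay in intron 3 of 20 of MELO3C023707.2, at chr1:6583951-6584400 and chr1:6584788-6585132, with 387 bp between them.

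The 2 farthest peaks of the class lay in the same intron. MELO3C035000.2, annotated as a structural constituent of the ribosome, spans chr11:14365529-14862225, a length of 496.697 kb and the longest gene in the list. All 4 of its peaks were in intron 1 of 9, and their centres lay 36.2, 167, 176 and 470 kb from its start. Intron 1 as annotated was therefore at least 433.848 kb long. The first 3 were assigned to the gene itself, at 35928, 166780 and 175773 bp, and the last to MELO3C035001.2, at 34730 bp from that neighbour's start. Whether a gene model of this length is correct was not tested.

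The other 3 hosts with at least 3 peaks had them in several introns. MELO3C014978.2, a protein kinase of 46.184 kb, held peaks in introns 9, 13 and 15 of 15, at 8651, 29859 and 44604 bp from its start. All 3 were assigned to it, and an exon-class peak in exon 13 lay 608 bp from the peak in intron 13. MELO3C010375.2, a DNA ligase of 63.269 kb, held 1 peak in intron 5 and 2 in intron 18 of 18. The peak at chr7:11419508-11419999 in intron 5 was assigned to it, and both peaks of intron 18 were assigned to neighbours. MELO3C014739.2, 44.442 kb long, held 2 peaks in intron 4 and 1 in intron 5 of 6.

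**Figure D4:**
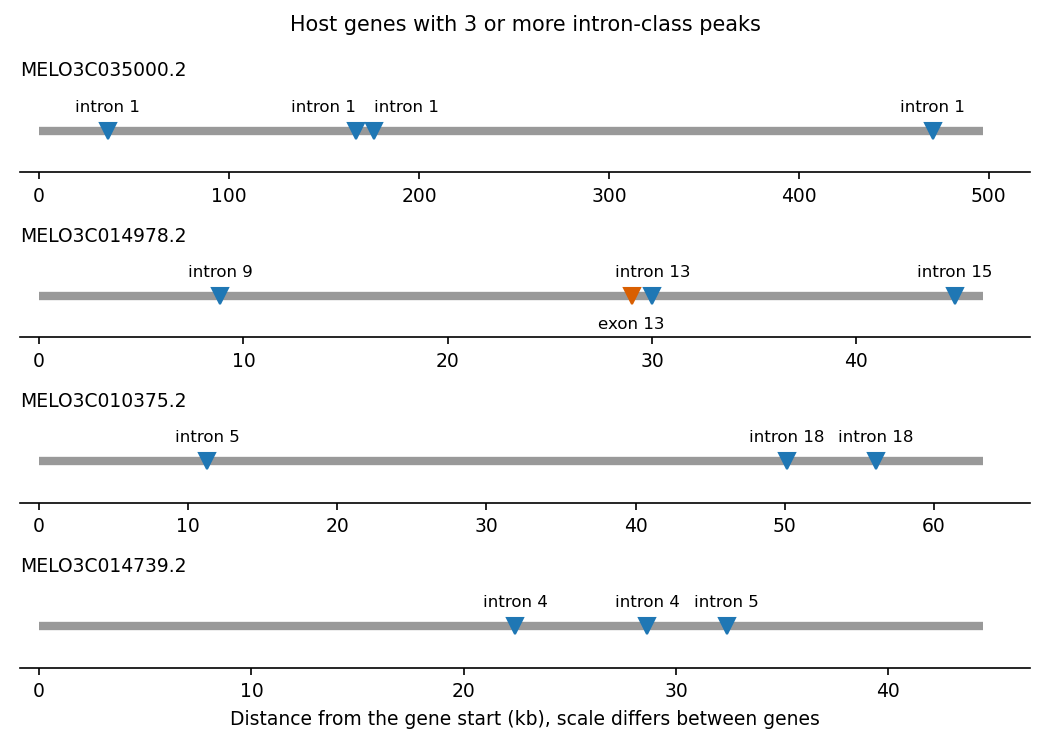
Position of every listed intron peak and exon-class peak in the 4 hosts with at least 3 intron peaks, as distance from the gene start in kb (horizontal axis), 1 grey line per gene drawn from its start to its end, with a scale of its own, intron peaks in blue and the exon peak in orange. The 4 peaks of MELO3C035000.2 all belong to intron 1 and spread from 36.2 to 470 kb, while the kinase MELO3C014978.2 has peaks in 3 introns and an exon within 46.184 kb.

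The other hosts with several peaks held 2 each, and 7 of them had coordinates. MELO3C013149.2, annotated to the retromer complex, which returns receptors from endosomes to the Golgi apparatus, had peaks in introns 4 and 6 of 22, at 4329 and 33343 bp from its start. MELO3C004822.2, a fatty-acyl-CoA reductase, the enzyme type that makes fatty alcohols of plant waxes, had them in introns 5 and 8 of 9, at 17412 and 41985 bp. MELO3C023103.2, an ATP-dependent transporter of 77.839 kb, had them in the adjacent introns 13 and 14 of 39. MELO3C019199.2, a membrane protein kinase, had 1 peak in each of its 2 introns. MELO3C010080.2, a hexosyl transferase annotated with lipid glycosylation, had them in introns 3 and 5 of 13, and MELO3C010035.2, annotated with metal ion binding, had 2 peaks 5856 bp apart. MELO3C015654.2, the glucan synthase above, completes those with coordinates. MELO3C002576.2, MELO3C012686.2, MELO3C017087.2, MELO3C019862.2, MELO3C022895.2, MELO3C023052.2 and MELO3C023707.2 had no coordinates or GO terms in the list, and the peak in intron 12 of 16 of MELO3C022895.2 was the farthest from a neighbour's start, at 42116 bp. Among single-peak hosts, the farthest from the assigned start was that in intron 11 of 12 of MELO3C018973.2, a Rab guanyl-nucleotide exchange factor acting at the Golgi, at 34939 bp.

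A minority of hosts also had a listed peak in the promoter class or in an exon. A promoter-class peak was assigned to 21 of 245 hosts (8.57%, 5.38 to 12.8), and in 11 of them (4.49%) it was centred upstream of the start. Of all 4510 assigned genes, 2105 (46.7%) had a promoter-class peak, but those genes are in the list because a peak was assigned to them, which was not so for 68 of the hosts. A gene can also enter the list through the promoter-class peak itself, so 46.7% is not a baseline for the hosts. Counted over the 177 hosts with coordinates, 21 had a promoter-class peak. An exon-class peak lay in 14 hosts (5.71%), and 35 hosts (14.3%) had a peak of either class. A gene with a promoter-class peak necessarily has coordinates in the list, so these counts do not lack hosts for want of coordinates. In 2 of the 11 the upstream-centred peak covered the gene start, namely MELO3C034243.2, a translation initiation factor, and MELO3C011386.2, a type II DNA topoisomerase. The intron peaks of these genes lay 11441 and 16951 bp from the start. In 6 of the 11 it lay within 1 kb without covering the start. These were MELO3C014325.2 (165 bp), MELO3C014531.2 (235 bp, a membrane protein), MELO3C010035.2 (455 bp), MELO3C022936.2 (702 bp, annotated with lipid metabolism), MELO3C014774.2 (724 bp, an aminopeptidase) and MELO3C008563.2 (757 bp, annotated to the U1 particle that selects splice sites). The remaining 3 were MELO3C015455.2 (1327 bp), MELO3C026333.2 (2174 bp, an S-formylglutathione hydrolase) and MELO3C019533.2 (2875 bp).

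Another listed peak lay within 5 kb of 31 of the 268 intron peaks (11.6%, 8.0 to 16.0) and of 904 of the 5225 other peaks (17.3%, 16.3 to 18.4). Within 2 kb the shares were 4.48% and 7.87%, and within 10 kb 27.6% and 28.6%. The nearest peak of the 31 was of the promoter class in 13 cases, of the exon class in 10, of the intron class in 5, in a 3' UTR in 2 and distal intergenic in 1.

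Intron peaks occurred on all 12 numbered chromosomes. They made up from 3.91% of the peaks of chromosome 11 to 6.79% of those of chromosome 2, and the interval of every chromosome's share included 4.88%. Counts ran from 13 on chromosome 9 to 32 on chromosome 1. On chr0, a sequence of the list outside the 12 numbered chromosomes, 0 of 154 peaks were of the class, which allows a share of up to 1.95%. With each chromosome measured from its start to its last listed peak, 61 intron peaks (22.8%, 17.9 to 28.3) lay in the outer 20%, made up of both ends. This share was 40.1% (33.8 to 46.6) for exon-class peaks, 38.0% (35.9 to 40.0) for promoter-class peaks and 11.5% (10.2 to 12.8) for distal intergenic peaks. For all other peaks together it was 25.04% (23.9 to 26.3), which lies within the interval of the intron share. The layout of genes and their lengths along the chromosomes was not measured here.

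**Figure D5:**
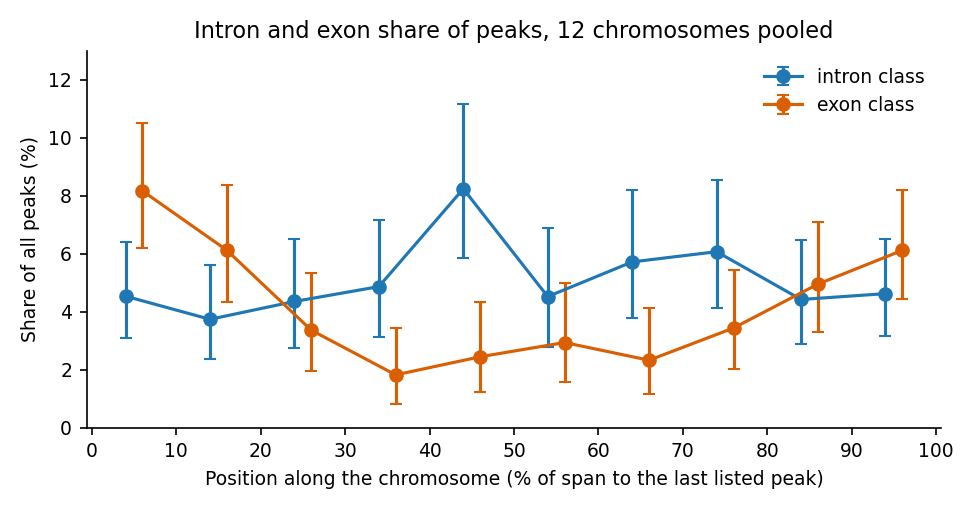
Intron peaks and exon-class peaks as a share of all listed peaks (vertical axis, percent) by position along the numbered chromosomes (horizontal axis, percent of the way from the start to the last listed peak, in steps of 10%, all 12 chromosomes pooled), with 95% exact intervals. The intron share lies between 3.74% and 8.24% in every step. The exon share falls from 8.17% in the first 10% to 1.83% between 30 and 40%, and is higher again at the other end, at 6.12% in the last 10%.

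By function, the hosts were spread over many kinds of genes. GO terms were available for 160 of the 245 hosts, and 3406 genes of the list had them. The 15 keyword lists on GO terms overlap, and 82 of the 160 hosts (51.3%) fell in at least 1 of them, beside 48.6% of the 3406 genes. Since long genes hold most intron peaks, each list is also given for the 122 such hosts and 390 genes of at least 10 kb. The 3406 genes include the 160 hosts and the 390 genes include the 122, which draws the paired shares together.

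The list of DNA repair, replication and chromatin held 12 of the 160 hosts (7.50%, 3.94 to 12.7) and 2.55% of all genes with GO terms. Its pattern takes any helicase, and the 12 include MELO3C020571.2, which is annotated as an RNA helicase. Among genes of at least 10 kb the shares were 7.38% of hosts and 6.67% of genes, a smaller gap than over all lengths. Its members with the widest peaks were MELO3C011649.2, a chromatin- and histone-binding ATPase (600 bp, intron 10 of 10), MELO3C031134.2, a histone-lysine N-methyltransferase (513 bp, intron 4 of 13), and MELO3C013197.2, annotated with regulation of DNA repair (512 bp, intron 2 of 5). The list has 2 genes annotated with ATP-dependent DNA ligase activity, which seals breaks in DNA, and both were hosts, MELO3C010375.2 described above and MELO3C003972.2, with a peak in intron 10 of 25 at 11497 bp from its start. Hosts made up 4.70% of all genes with GO terms and 31.3% of those of at least 10 kb, and these 2 genes are 63.269 and 29.501 kb long. The interval of 2 in 2 runs from 15.8 to 100%. This pair was picked out after its values were seen.

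The protein kinase list, whose terms include phosphorylation and kinase regulation, held 13 hosts (8.13%, beside 5.23% of all genes, and 7.38% beside 6.15% at 10 kb and above). Of the 13, 11 were annotated with protein kinase activity itself. The widest peak was that of 610 bp in intron 1 of MELO3C019199.2. It was followed by one of 578 bp in intron 7 of 8 of MELO3C023189.2, annotated to the mediator complex as a regulator of cyclin-dependent kinases, and one of 535 bp in MELO3C014325.2. The hormone list held 1 host (0.625%, beside 2.32%, and 0.820% beside 1.54% at 10 kb and above), MELO3C014413.2, a phosphatase annotated with brassinosteroid signalling, with a peak in intron 7 of 20 at 6481 bp from its start.

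Transcription regulators made up 6 hosts (3.75%, 1.39 to 7.98, beside 7.34% of all genes), and 3.28% beside 4.62% at 10 kb and above. MELO3C011649.2 had the widest peak, followed by MELO3C018369.2, annotated to the ELL-EAF complex that acts on elongation by RNA polymerase (551 bp, intron 2 of 3). MELO3C012973.2, a sequence-specific DNA-binding protein with lipid-binding annotation, had a peak of 531 bp in its last intron, intron 7, at 6073 bp from its start. RNA processing and binding held 10 hosts (6.25%, beside 3.99%, and 6.56% beside 6.15% at 10 kb and above). It included MELO3C026663.2, annotated to the RNA-degrading exosome, with a peak in intron 1 of 5, and MELO3C005354.2, annotated with removal of mRNA caps in P-bodies, with a peak in intron 5 of 7. The widest peak of that list was one of 581 bp in MELO3C035000.2. Translation held 5 hosts (3.13%, beside 3.96%, and 2.46% beside 3.59% at 10 kb and above), among them the initiation factors MELO3C034243.2 (519 bp, intron 3 of 3) and MELO3C004345.2 (433 bp, intron 4 of 14).

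Membrane transport held 10 hosts (6.25%, beside 5.37%, and 7.38% beside 6.15% at 10 kb and above). The 10 include the retromer host MELO3C013149.2, which the pattern took by an obsolete protein transporter term. The widest peaks of the list lay in MELO3C002711.2, named above, in MELO3C021377.2, a carbohydrate transporter (620 bp, intron 2 of 19, 3254 bp from the start), and in MELO3C011599.2, an ATP-dependent transporter of 66.18 kb (583 bp, intron 10 of 26). Of the 14 genes in the whole peak list annotated with the GO term carbohydrate transport, 4 were hosts, beside 4.70% of all genes with GO terms. At 10 kb and above it was 3 of 4, beside 31.3%. This term was also picked out after its values were seen. Beside MELO3C021377.2 these were MELO3C011623.2, a carbohydrate and proton symporter of the Golgi membrane (565 bp, intron 5 of 16), MELO3C020486.2 (516 bp, intron 4 of 7) and MELO3C031571.2 (395 bp, intron 8 of 12). MELO3C020486.2 and MELO3C031571.2 are not among the 10 hosts of the membrane transport list. Vesicle and protein trafficking held 7 hosts (4.38%, beside 2.20%, and 4.92% beside 5.64% at 10 kb and above), with the widest peaks in MELO3C015246.2, MELO3C011623.2 and MELO3C015107.2, which is annotated with transport within the Golgi apparatus (498 bp, intron 8 of 10). The pattern took MELO3C011623.2 and MELO3C003359.2 by a Golgi location term alone.

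Cell wall and pectin held 2 (1.25%, beside 2.03%, and 0.820% beside 1.28% at 10 kb and above), MELO3C016230.2, a pectinesterase, an enzyme that removes methyl groups from pectin, with a peak in intron 4 of 4 at 4174 bp, and MELO3C004733.2, a hydrolase of the plant cell wall, with a peak of 573 bp in intron 2 of 5. Sugar and starch held 3 (1.88%, beside 2.99%, and 2.46% beside 3.59% at 10 kb and above), MELO3C010080.2, MELO3C015654.2 and MELO3C020568.2, a glycosyl hydrolase (559 bp, intron 3 of 9). Lipid and isoprenoid held 8 (5.0%, beside 3.11%, and 4.92% beside 3.33% at 10 kb and above), with the widest peaks in MELO3C016656.2, MELO3C010080.2 (605 bp) and MELO3C012973.2. The pattern took MELO3C012973.2, described above, by its lipid-binding term alone. Redox held 9 (5.63%, beside 7.19%, and 4.92% beside 6.67% at 10 kb and above), with the widest in MELO3C002813.2, a dehydrogenase of branched-chain amino acid breakdown (554 bp, intron 4 of 6), MELO3C034391.2 (479 bp, intron 8 of 9) and MELO3C029910.2 (467 bp, intron 1 of 2). Chloroplast and photosynthesis held 2 (1.25%, beside 3.46%, and 1.64% beside 2.05% at 10 kb and above), MELO3C010072.2, a ribonuclease P that trims transfer RNA, with a peak in intron 2 of 7, and MELO3C002989.2, a GTPase activator annotated to the nuclear envelope, the spindle and the chloroplast, with a peak in intron 9 of 17.

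Ubiquitin and proteasome held 3 hosts (1.88%, beside 1.76%, and 2.46% beside 2.31% at 10 kb and above), MELO3C011716.2, a ubiquitin hydrolase (461 bp, intron 15 of 17), MELO3C026527.2, a ubiquitin transferase (455 bp, intron 3 of 3), and MELO3C013214.2, a ubiquitin-binding protease (403 bp, intron 3 of 15). Cytoskeleton and motor held 6 hosts as the pattern was written (3.75%, beside 6.11%, and 2.46% beside 6.67% at 10 kb and above), but the letters of actin also matched the word acting in enzyme names. With actin as a whole word it held 2 (1.25%, beside 2.17%, and 1.64% beside 3.85% at 10 kb and above), MELO3C019533.2 and MELO3C002989.2. The intervals of these small counts are wide, and no list was tested.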

How the data were processed

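DAP-seq libraries of melon genomic DNA fall into 2 groups of 2, MBP-His-CmNOR and MBP-His. The deposited list, 1 row per peak, gives positions, widths and distances in bp, a location class, an assigned gene with coordinates and its GO terms, per the file headers. The submitters' processing notes name the peak caller MACS2 and the tool set deepTools. The sources used here do not state their versions or thresholds, the aligner, the genome build, the annotation, how libraries were combined, or the rule for a peak that touches both an exon and an intron. A looser calling threshold would list more weak sites.

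Host, intron number and intron total were read from the location text. Host coordinates were taken from rows assigned to that gene. The position function was tested on simulated data. Width equalled end minus start plus 1 in all 5493 rows. Of 329 identifiers of hosts and assigned genes, 0 were found in RefSeq's table for the assembly USDA_Cmelo_AY_1.0. Genes therefore appear under their identifier with their GO terms, and no sequence is shown. Intervals are 95% exact Clopper-Pearson, and the limit for a count of 0 is 3 counts.

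The members and lists were chosen with earlier results of these data known. Named genes are the 10 widest and 10 farthest peaks, hosts with several peaks, the 5 peaks nearest the 3 kb limit on each side, the 5 hosts with most introns and up to 3 hosts with the widest peaks per list. Genes with a peak upstream, the only-intron, nested and ligase hosts, the carbohydrate transporters and some further list members were added after values were seen. Computation used pandas 2.3.3, scipy 1.17.1 and numpy 2.4.6 in Python 3.11.15, and figures used matplotlib 3.10.9.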

Additional observations from a re-analysis of the deposited data

How the results depend on the processing

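Of the alternatives to the main values, 21 left them within their interval or spread and 5 moved them. Leaving out chr0 could not change values that rest on intron peaks alone, since chr0 held 0 of them. The 5 that moved used another limit or another denominator, so a change was built in. The intron share was 8.16% of the 3283 peaks outside the promoter class. Intron peaks in the outer 10% of the chromosomes were 11.9% and in the outer 30% 33.2%. Those with a neighbour within 2 kb were 4.48% and within 10 kb 27.6%. By assigned gene in place of host, the transcription list held 10 of 202 genes, beside 6 of 160 hosts. The hormone list held 2 of 202 genes, beside 1 of 160 hosts. The base is larger by assigned gene, so these counts are not directly comparable. The alternatives chosen after seeing the data were hosts of 10 to 25 kb, the whole-word actin pattern, genes of at least 10 kb as the background, and leaving out MELO3C035000.2, which gave a median distance of 6433.5 bp and 6.82% of peaks in intron 1.

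No paired analysis was possible because the list holds no value per library, and for the same reason leaving out each library in turn was not run. Depth, weak sites and the share seen in both CmNOR libraries cannot be read from it. Host lengths, positions and functions rest on hosts that are also assigned genes.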
